A study of Mus musculus with 19 samples.

Results

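The kinases and phosphatases of the pyruvate dehydrogenase complex were followed across 19 isolated mouse hearts, as 6 genes of the 22180 genes tested: the kinases Pdk1, Pdk2, Pdk3 and Pdk4 and the phosphatases Pdp1 and Pdp2. A gene was represented by the array probe set that the platform annotation assigns to its symbol alone, and by the brighter probe set where there were several. All 6 genes were measured. Pdk1 was the only one with another probe set, which was dim, at a mean log2 level of 1.78 against 7.18 for the probe set used. The genes lie on different chromosomes of the mouse genome (GRCm38.p6), Pdk1 at chr2:71873215-71903858, Pdk2 at chr11:95026258-95041371, Pdk3 at chrX:93764616-93832150, Pdk4 at chr6:5483351-5496278, Pdp1 at chr4:11958183-11966450 and Pdp2 at chr8:104591472-104599026.

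There were 3 groups: wild-type C57Bl6J hearts taken at ZT0, when the lights go on (n = 7), wild-type C57Bl6J hearts taken at ZT12, when they go off (n = 7), and hearts of mice lacking Rev-erb alpha, also taken at ZT12 (n = 5). Rev-erb alpha is a nuclear receptor of the circadian clock that represses transcription. Each heart was perfused with the Langendorff method, in which buffer enters through the aorta, and after a stabilisation phase its flow was stopped for 20 min and restored for another 20 min before freezing. The labels give no strain for the knockout mice, do not say how their allele was made, and give no age or sex for any group. All groups had gone through ischemia and reperfusion, and knockout hearts at ZT0 are not analysed here.

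The pyruvate dehydrogenase complex sits in the mitochondrial matrix and turns pyruvate into acetyl-CoA, the step that commits carbon from glucose and lactate to oxidation. The kinases phosphorylate its E1 subunit and switch it off, and the phosphatases remove the phosphate and switch it on again. In heart muscle, which burns mainly fatty acids, Pdk4 is known as the kinase gene induced by fasting, fatty acids acting through PPAR receptors, FOXO factors and glucocorticoids. Pdk2 is the broadly expressed kinase, Pdk1 is known as a target of hypoxia-inducible factors, Pdp1 encodes a calcium-stimulated phosphatase of muscle, and Pdp2 an insulin-sensitive phosphatase.

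Levels are log2 intensities that can be compared between hearts for a gene, not between genes. Array medians lay between 3.25 and 3.32, correlations between arrays between 0.972 and 0.985, and over all genes the SE of a comparison had a median of 0.096 (time of day) or 0.105 (knockout). Cardiomyocyte markers were high in every heart, with a list mean of 10.70 to 10.88. The hearts differed in atrial markers: Bmp10, a secreted factor made by right atrial muscle, was at 2.66 to 4.15 in 9 hearts and at 9.01 to 10.3 in the other 10. The low hearts were 1 of 7 at ZT0, 4 of 7 wild-type hearts at ZT12 and 4 of 5 knockout hearts. Nr1d1, the gene of Rev-erb alpha, was at 6.30 to 6.51 in knockout hearts, 6.46 to 7.28 in wild-type hearts at ZT12 and 5.76 to 6.67 at ZT0. The knockout hearts did not differ from wild-type hearts at ZT12 in this probe set by the test (log2 difference -0.35, adjusted p = 0.374). Which exons it reads and which the allele lacks is not given in the sources used here, so it does not check the knockout label. Arntl, a gene that Rev-erb alpha is known to repress, had a mean of 6.54 in the hearts labelled knockout and 4.08 in wild-type hearts at ZT12 (adjusted p = 1.24e-12).

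Promoter sequence of the genes was taken from RefSeq (GRCm38.p6) as the 250 bases before each annotated start, which matched 5 of the 6 genes, all but Pdp1. The window of Pdk4 is shown because this gene rose in the hearts without Rev-erb alpha. Those of Pdp2 and of the first of 2 annotated starts of Pdk2 are shown because they hold an E-box, the motif that clock activators bind. The windows shown lie at chr6:5496279-5496528 on the minus strand for Pdk4, at chr11:95041372-95041621 on the minus strand for Pdk2 and at chr8:104591222-104591471 on the plus strand for Pdp2. Sequences run 5′ to 3′ toward the start, and capitals mark the E-box CACGTG.
Pdk4: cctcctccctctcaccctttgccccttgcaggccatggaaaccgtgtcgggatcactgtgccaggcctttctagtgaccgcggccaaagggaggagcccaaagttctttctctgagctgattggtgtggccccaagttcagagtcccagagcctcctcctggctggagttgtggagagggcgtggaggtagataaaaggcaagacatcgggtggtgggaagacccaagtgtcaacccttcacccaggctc
Pdk2: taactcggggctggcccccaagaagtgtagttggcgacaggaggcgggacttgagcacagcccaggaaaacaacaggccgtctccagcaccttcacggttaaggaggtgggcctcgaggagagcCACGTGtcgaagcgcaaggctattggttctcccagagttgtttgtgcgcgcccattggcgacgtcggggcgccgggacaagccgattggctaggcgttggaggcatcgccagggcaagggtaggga
Pdp2: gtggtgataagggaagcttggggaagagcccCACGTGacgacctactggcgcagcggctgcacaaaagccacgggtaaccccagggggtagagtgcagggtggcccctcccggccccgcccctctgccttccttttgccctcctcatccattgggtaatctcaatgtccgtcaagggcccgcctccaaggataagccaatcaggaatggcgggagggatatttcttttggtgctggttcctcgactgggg
The motifs were searched on both strands. The E-box was 126 bases before the first annotated start of Pdk2 and 219 bases before that of Pdp2, and 6.02% of all 32851 promoter windows of this length hold it. The window of the second start of Pdk2 had 0 matches of it. The nuclear receptor core AGGTCA, held by 14.0% of windows, and its longer form TAGGTCA of Rev-erb elements, held by 2.23%, had 0 matches in the windows of these 5 genes. The same was true of the D-box TTATGTAA (0.819% of windows), the FOXO site TGTTTAC (3.17%), the direct repeat of the core with 1 base between its copies (0.0335%) and the ERR site TCAAGGTCA (0.387%); the repeat and the ERR site both contain the core AGGTCA. The hypoxia core ACGTG, held by 16.6% of windows and contained in the E-box, occurred in the first window of Pdk2 and in those of Pdk3 and Pdp2. The glucocorticoid receptor core TGTTCT (16.1%) occurred at 2 positions before the second annotated start of Pdk1. These matches describe the letters of the windows and say nothing of regions farther away.

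Among the kinases, Pdk4 stood higher in the knockout. Its level at ZT12 was 10.43, 10.11, 9.82, 10.47 and 11.28 in the 5 knockout hearts, and in wild-type hearts it ran from 8.97 over a median of 9.44 to 10.13 (n = 7). The groups overlapped through wild-type ZT12 replicate 1, at 10.13, which lay above 2 knockout hearts, while the other wild-type hearts lay at 9.51 or below. The means were 10.42 ± 0.55 in the knockout (SD, n = 5) and 9.42 ± 0.39 in wild type (SD, n = 7). The log2 difference was 1.0 (SE 0.21, 95% interval 0.57 to 1.43), a 2.0-fold rise with an interval of 1.49 to 2.69, and passed limma's test over all genes (adjusted p = 0.0223). All 5 knockout hearts lay above the wild-type mean. A difference at least as far from 0 was found for 16 of the 22180 genes (0.0721%). In whole-heart RNA, more transcript per cell cannot be told apart from more cells that hold it.

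**Figure D1:**
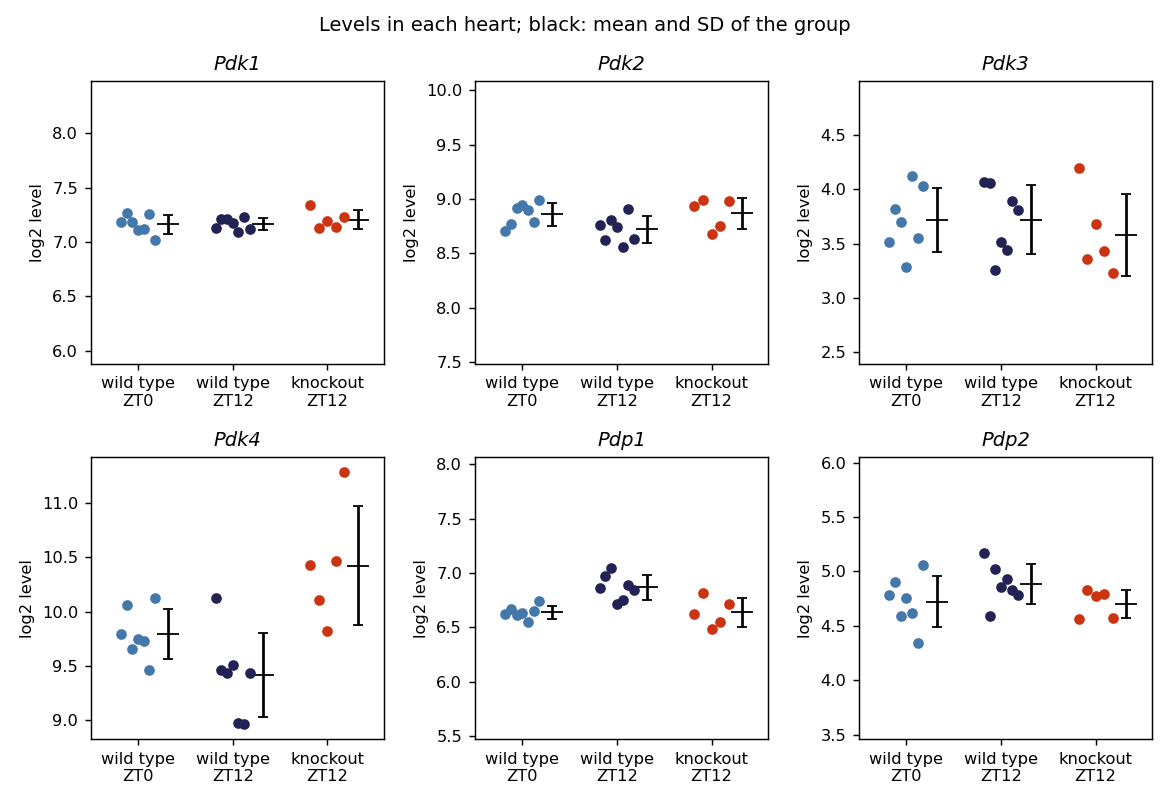
Log2 level of each gene (y axis, the same span in every panel) in each heart (points) of the wild-type ZT0 (n = 7), wild-type ZT12 (n = 7) and knockout ZT12 (n = 5) groups, with the mean and SD of the group in black. Pdk4 spreads from 8.97 to 11.28 and has its 5 knockout hearts at 9.82 or above, while Pdk1 stays between 7.02 and 7.34.

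Tissue composition was set beside this rise. Among the 9 hearts low in Bmp10, the mean Pdk4 level was 10.42 in the 4 knockout hearts and 9.22 in the 4 wild-type ZT12 hearts. This split was made after seeing the data. The log2 difference in these hearts was 1.19 (SE 0.28), and the call was lost over this smaller set (adjusted p = 0.257), in which limma called 4 genes. The only knockout heart with high Bmp10 was at 10.43, and the 3 wild-type ZT12 hearts of that kind had a mean of 9.68. With the mean of 10 atrial markers as a covariate the difference was 1.02 (adjusted p = 0.0434), and 0 of these markers passed between the genotypes. Their mean level was 5.28 to 7.62 in knockout hearts (median 5.54) and 5.49 to 7.68 in wild-type hearts at ZT12 (median 6.9). The log2 differences of the 10 atrial markers ran from -2.0 to 0.15 with a median of -0.495, and 3 were above 0. The absence of calls thus does not show that atrial content was equal. Of 9 adipocyte markers, 1 passed, Plin4, a lipid droplet gene, at 0.46 (adjusted p = 0.0223), and that call was lost without knockout replicate 2, 4 or 5 or in the hearts low in Bmp10 (adjusted p 0.0541 to 0.142). Adipocyte list means were 5.0 to 6.99 in knockout hearts and 4.89 to 6.79 in wild-type hearts at ZT12. The log2 differences of the 9 adipocyte markers ran from -0.03 to 0.57 with a median of 0.23. Of these, 7 were above 0, and limma's model put 2 under 0.05 without adjustment. With the adipocyte mean as a covariate the Pdk4 difference was 0.98 (adjusted p = 0.0293). Markers of cardiomyocytes (10), endothelium (9), fibroblasts (8), smooth muscle (7), macrophages and neutrophils (9) and blood and lymphoid cells (6) had 0 calls between the genotypes. Of 9 skeletal muscle markers, 1 fell, the actin gene Acta1 (-1.76, adjusted p = 0.0242), a call lost in 4 of 24 alternatives, among them without knockout replicate 2 or 5 (adjusted p 0.0633 to 0.0808). The part of the skeletal muscle markers, whose mean was 3.99 to 4.39 in knockout and 4.31 to 4.69 in wild-type hearts at ZT12, in the Pdk4 difference was not tested. That mean includes Acta1, and the median log2 difference of the 9 markers was -0.12.

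Wild-type ZT12 replicate 1 was the highest heart of the lower group, so leaving it out could only widen the Pdk4 difference. It was then 1.12 (adjusted p = 0.00716), which is no check of the rise. Knockout replicate 5, the highest heart, moved the value most: without it the difference was 0.78 (SE 0.18, adjusted p = 0.0585). The call was also lost without knockout replicate 4 (0.99, adjusted p = 0.0544) and when only the 2 groups compared entered the fit (1.0, adjusted p = 0.0974). Over 24 alternatives the difference ran from 0.78 to 1.19, and 19 of them kept the call.

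**Figure D2:**
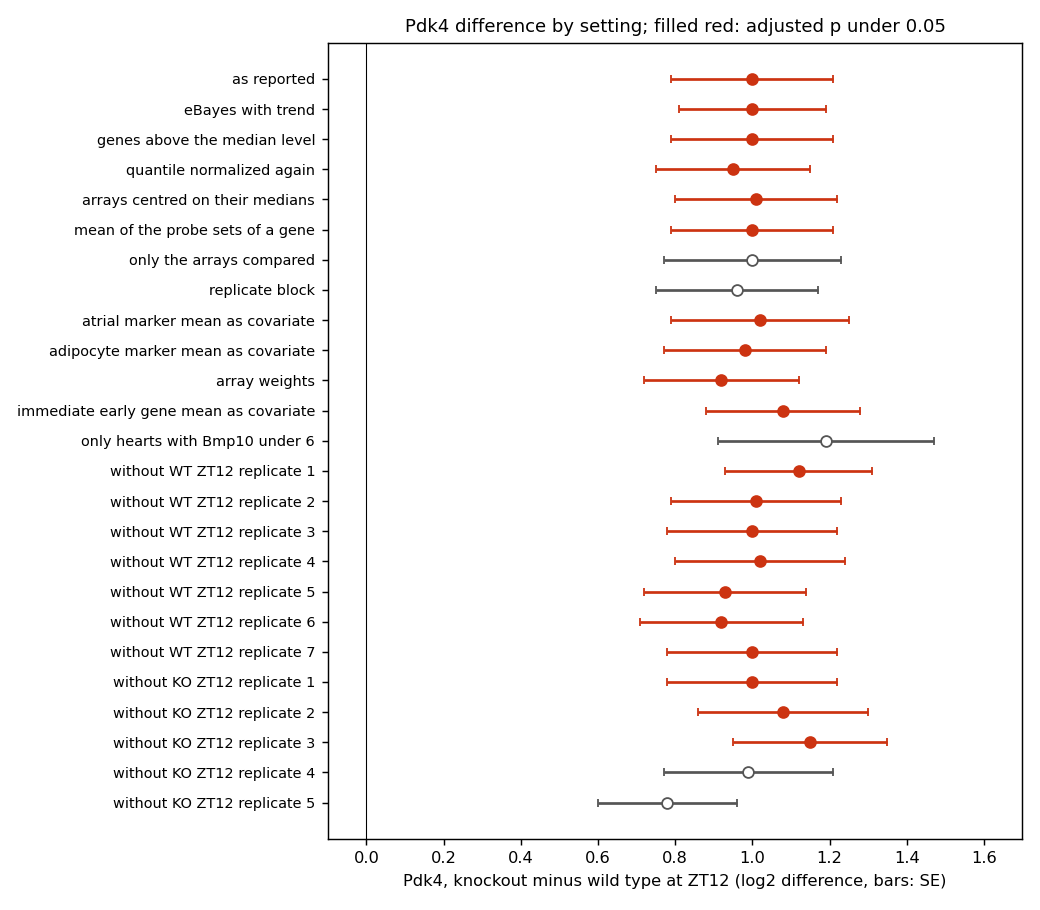
Pdk4 log2 difference between knockout and wild-type hearts at ZT12 (x axis; points with SE bars) in the reported fit and 24 alternative fits (y axis), filled red where the adjusted p was under 0.05. The values lie between 0.78 and 1.19, and 5 of the alternatives are open symbols.

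The other comparisons of Pdk4 did not pass. Wild-type hearts at ZT0 were at 9.46 to 10.13 with a median of 9.75 and a mean of 9.80 ± 0.23 (SD, n = 7). The knockout was 0.62 higher (SE 0.21, 95% interval 0.19 to 1.05), which did not pass (adjusted p = 0.165). It was 0.41 without knockout replicate 5, the highest heart (adjusted p = 0.407), and 0.41 to 0.77 over all hearts left out in turn. Within wild type, ZT12 was 0.38 below ZT0 on the log2 scale (difference -0.38, SE 0.19, 95% interval -0.77 to 0.01), which did not pass either (adjusted p = 0.453), and 6 of 7 ZT12 hearts lay below the ZT0 mean. Among the hearts with high Bmp10, 6 at ZT0 and 3 at ZT12, the difference was -0.12 (SE 0.18, adjusted p = 0.877). The order of the means was knockout ZT12, wild-type ZT0 and wild-type ZT12, with neighbours in this order not separated by the test. The comparisons share groups, so these 3 differences are not independent.

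Pdk4 also varied more between hearts of the same group than most genes. Its residual SD after removal of the group means was 0.39, above that of 98.3% of genes with more than the median level. Deviations from the group mean were most like those of Slc27a1, the gene of a fatty acid transport protein (Pearson r = 0.84 over 19 hearts), Fdps, of the sterol pathway (0.82), the linker histone gene H1f2 (0.79), the amino acid transporter gene Slc7a1 (0.77) and the zinc transporter gene Slc39a6 (0.76). These 5 were the highest of 10369 genes searched, and the hearts share whatever differs between arrays. Between the genotypes at ZT12 their log2 differences were 0.40 for Slc27a1, 0.20 for Fdps, 0.08 for H1f2, -0.37 for Slc7a1 and -0.40 for Slc39a6, of which only that of Slc39a6 passed (adjusted p = 0.0179). That call was lost without knockout replicate 2 or 4, with the atrial mean as a covariate, with only the arrays compared and in the hearts low in Bmp10 (adjusted p 0.0529 to 0.48).

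The other kinases did not pass in any comparison. Pdk2 was at 8.93, 8.99, 8.68, 8.75 and 8.98 in the knockout hearts. Wild-type hearts were at 8.56 to 8.91 (median 8.74) at ZT12 and at 8.70 to 8.99 (median 8.90) at ZT0, and the groups overlapped. Its mean was 8.72 ± 0.12 in wild type at ZT12 (SD, n = 7), 8.86 ± 0.11 at ZT0 (SD, n = 7) and 8.86 ± 0.14 in the knockout (SD, n = 5). The log2 differences were -0.14 between the times of day (95% interval -0.29 to 0.01, adjusted p = 0.469) and 0.15 between the genotypes (95% interval -0.02 to 0.31, adjusted p = 0.539).

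Pdk1 was the steadiest of the 6 genes. It lay at 7.02 to 7.27 at ZT0 (median 7.18), at 7.09 to 7.23 in wild type at ZT12 (median 7.17), and at 7.34, 7.13, 7.19, 7.14 and 7.23 in the knockout. Its residual SD of 0.077 was above that of only 4% of genes with more than the median level. The 95% intervals of its differences were -0.11 to 0.12 between the times of day and -0.09 to 0.17 between the genotypes (adjusted p = 0.987 and 0.877). Fold changes above 1.12 in either direction thus lay outside these intervals.

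Pdk3, a kinase gene known for expression in testis, varied widely between hearts, with a residual SD of 0.33. Its probe set was dim, with a mean of 3.68 under the median of gene means of 3.78. How much of this spread is that of the transcript was not tested. It ran from 3.28 to 4.12 at ZT0 (median 3.70), from 3.26 to 4.07 in wild type at ZT12 (median 3.81), and was 4.19, 3.36, 3.68, 3.43 and 3.23 in the knockout. The log2 difference between the genotypes was -0.15 (95% interval -0.51 to 0.22, adjusted p = 0.825). The heart with the highest value, knockout replicate 1, was also the only knockout heart with high Bmp10, and at ZT12 the 3 wild-type hearts with high Bmp10 had a mean of 3.98 against 3.53 in the 4 with low Bmp10. With the atrial mean as a covariate the genotype difference turned to 0.09 (adjusted p = 0.857) and that to wild-type ZT0 from -0.14 to 0.29 (adjusted p = 0.476).

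The phosphatase gene Pdp1 lay higher in wild-type hearts at ZT12 than in the other groups, by little and without passing the test. It was at 6.55 to 6.74 at ZT0 (median 6.63) and at 6.72 to 7.05 at ZT12 (median 6.86), and the groups overlapped because ZT12 replicate 4 (6.72) lay below ZT0 replicate 7 (6.74). All 7 ZT12 hearts lay above the ZT0 mean. The knockout hearts were at 6.62, 6.82, 6.49, 6.55 and 6.72, and all 5 lay below the wild-type ZT12 mean. The means were 6.64 ± 0.058 at ZT0 (SD, n = 7), 6.87 ± 0.12 at ZT12 (SD, n = 7) and 6.64 ± 0.13 in the knockout (SD, n = 5). The difference between the times of day was 0.23 (SE 0.065, 95% interval 0.09 to 0.36, adjusted p = 0.101), a 1.17-fold change. It passed in 2 alternatives, with a trend of the spread on the mean level (adjusted p = 0.0487) and among genes above the median level (0.0354), and over all alternatives adjusted p was 0.0354 to 0.374. The genotype difference at ZT12 was -0.23 (SE 0.071, 95% interval -0.37 to -0.08, adjusted p = 0.188), and the knockout differed from wild type at ZT0 by 0.00 (95% interval -0.14 to 0.15).

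Pdp2 had differences of like direction and wider error. It lay at 4.34 to 5.06 at ZT0 (median 4.76), at 4.59 to 5.17 in wild type at ZT12 (median 4.86), and at 4.56, 4.83, 4.77, 4.79 and 4.57 in the knockout. The log2 differences were 0.16 between the times of day (95% interval -0.04 to 0.37, adjusted p = 0.569) and -0.18 between the genotypes (95% interval -0.41 to 0.05, adjusted p = 0.591). The groups overlapped, with 6 of 7 ZT12 hearts above the ZT0 mean.

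**Figure D3:**
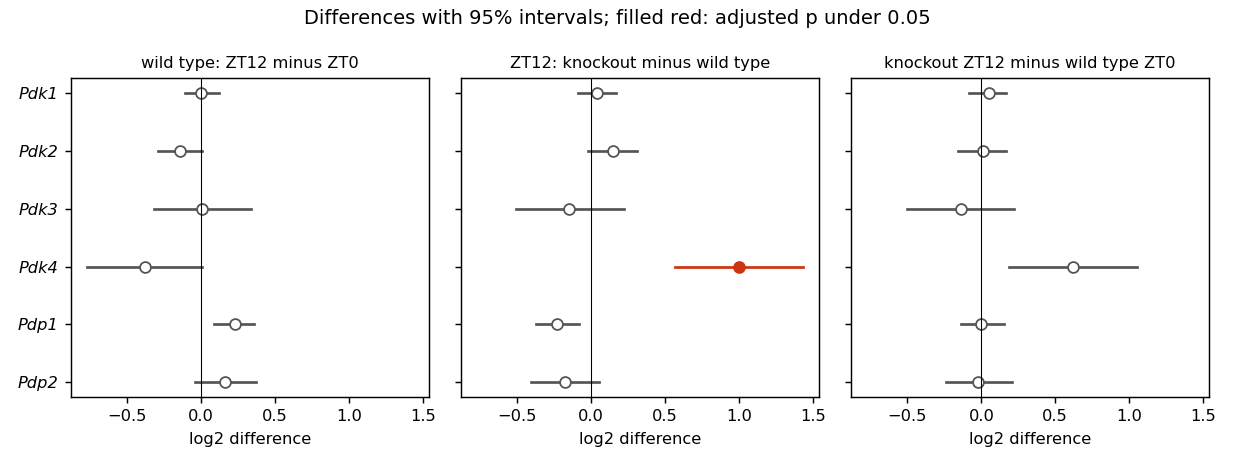
Log2 difference of group means (x axis) with its 95% interval for each gene (y axis) in the 3 comparisons (panels); filled red marks an adjusted p under 0.05 over all genes. Pdk4 at 1.0 between the genotypes is the filled point, and the intervals of Pdk1 are the narrowest.

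By count, 0 of the 6 genes rose and 0 fell between the times of day, where 1.13% of all genes were called in either direction, 0.645% higher and 0.482% lower. Between the genotypes at ZT12, 1 rose, 0 fell and 5 did not pass, beside 0.73% of all genes called in either direction, 0.442% higher and 0.289% lower. Between the knockout and wild-type ZT0 hearts 0 passed, beside 1.34% of all genes in either direction, 0.965% higher and 0.379% lower. The median log2 difference of the 6 genes was 0.01, -0.05 and 0.01 in the same order, and that of all genes was -0.004, -0.003 and -0.008. Without adjustment, limma's model across all genes put 1, 2 and 1 of the 6 genes and 2549, 2342 and 2793 of all genes under 0.05. The former were Pdp1 between the times of day, Pdk4 and Pdp1 between the genotypes, and Pdk4 between the knockout and wild-type ZT0.

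How the 6 genes varied together between hearts of the same group was examined next. Over the 15 pairs, Pearson r of deviations from the group means ran from -0.54 to 0.51 (19 hearts) and 0 pairs passed a permutation test within groups after adjustment. The extremes were Pdk1 with Pdp2 (r = -0.54, rho = -0.45, permutation p = 0.0271 and 0.0713, adjusted p = 0.369 and 0.535) and Pdk2 with Pdp1 (r = 0.51, rho = 0.57, permutation p = 0.0491 and 0.0247, adjusted p = 0.369 and 0.37). Without the 2 hearts farthest from the median of the first gene, r was -0.37 and 0.44. Within groups of at least 6 hearts, 1 of 30 correlations passed. At ZT0, Pdk4 and Pdp2 ranked the 7 hearts in the same order (r = 0.97, rho = 1.0, exact permutation p = 0.000198 and 0.000397, the smallest these 5040 pairings can give; adjusted p = 0.00595 and 0.0119), and r was 0.97 without the 2 hearts farthest from the median. At ZT12 in wild type r was 0.44, and over all groups it was 0.26 (rho = 0.26, permutation p = 0.237 and 0.291, adjusted p = 0.908 and 0.963). In knockout replicates 1 to 5, Pdk4 was at 10.43, 10.11, 9.82, 10.47 and 11.28 and Pdp2 at 4.56, 4.83, 4.77, 4.79 and 4.57. With fewer than 6 hearts, the knockout group was not tested alone. Whether the relation differed between the times of day or the genotypes was not tested.

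**Figure D4:**
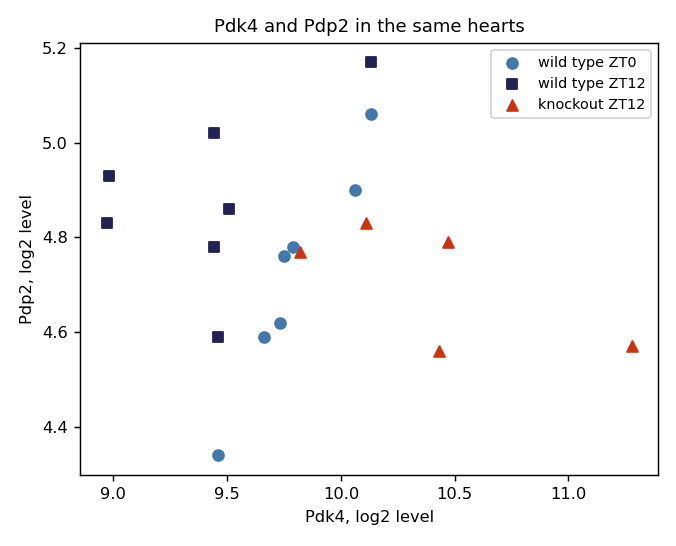
Log2 level of Pdp2 (y axis) against that of Pdk4 (x axis) in each heart, with the group given by colour and symbol (wild-type ZT0, n = 7; wild-type ZT12, n = 7; knockout ZT12, n = 5). The ZT0 hearts rise along a line with r = 0.97. The knockout hearts do not follow it: the highest in Pdk4 (11.28) is at 4.57 in Pdp2, and the lowest (9.82) at 4.77.

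For the complex that these enzymes act on, no transcript difference passed the test. Of its 6 genes, which encode the E1 subunits (Pdha1, Pdhb), E2 (Dlat), E3 (Dld), the E3-binding protein (Pdhx) and the regulatory subunit of the phosphatase (Pdpr), 0 passed in any of the 3 comparisons with limma, and 0, 1 and 0 were under 0.05 without adjustment. Their median log2 differences were 0.07 between the times of day and -0.035 between the genotypes. The smallest p belonged to Dld between the times of day (log2 difference 0.11, adjusted p = 0.523) and to Pdhb between the genotypes (-0.16, adjusted p = 0.411). The related branched-chain ketoacid dehydrogenase, whose kinase is Bckdk and whose phosphatase is Ppm1k, had 0 of 5 genes passing. Dbt was at 0.14 between the times of day (adjusted p = 0.367) and Ppm1k at 0.19 between the genotypes (adjusted p = 0.375). Of 5 measured genes for lipoate and thiamine, the cofactors of both complexes, 0 passed, with Lipt1 at 0.13 (adjusted p = 0.662) and Slc19a2 at 0.10 (adjusted p = 0.709) nearest in the same comparisons.

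Among 11 genes of pyruvate and lactate entry, 1 rose between the times of day (of all genes, 0.645%) and 0 fell (0.482%). Between the genotypes 0 passed (0.73%). The gene that rose was Me2, mitochondrial malic enzyme, which makes pyruvate from malate (log2 difference 0.33, SE 0.080, adjusted p = 0.0427). This call was lost in 16 of 26 alternatives (adjusted p 0.0516 to 0.363), among them with the atrial mean as a covariate. They included leaving out any single wild-type heart other than ZT0 replicates 1 and 7 and ZT12 replicate 6. Between the genotypes Me2 was at -0.31 (adjusted p = 0.125). Mpc1, of the mitochondrial pyruvate carrier, was at -0.01 and 0.08, and Ldhb, the lactate dehydrogenase gene of heart muscle, at -0.03 and -0.05 in the 2 comparisons, and neither passed.

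Of 18 genes for transcription factors and coactivators known to act on Pdk genes, 15 did not pass between the times of day. The other 3 rose (of all genes, 0.645%) and 0 fell (0.482%). They were Nr1d2, the gene of Rev-erb beta (log2 difference 1.32, adjusted p = 3.74e-09), Klf15, a glucocorticoid-induced factor of muscle metabolism (0.46, adjusted p = 0.0185), and Nr1d1 (0.59, adjusted p = 0.0289). The call for Klf15 was lost in 2 of 26 alternatives, one of them the hearts with high Bmp10 (adjusted p 0.088 and 0.139). That for Nr1d1 was lost in those hearts, with only the arrays compared, and without wild-type ZT0 replicate 1, 2, 3, 4 or 6 or wild-type ZT12 replicate 1, 6 or 7 (adjusted p 0.0521 to 0.304). Between the genotypes at ZT12, where Pdk4 rose, 0 of the 18 passed with limma, beside 0.73% of all genes. Without adjustment 6 were under 0.05 in limma's model, beside 2342 of all 22180 genes. The nearest was Esrra, the gene of the receptor ERR alpha (0.29, adjusted p = 0.237). Ppara, the gene of the fatty acid receptor PPAR alpha, was at -0.02 (adjusted p = 0.967). Between the knockout and wild-type hearts at ZT0, Foxo3 (0.53, adjusted p = 0.00162), Klf15 (0.63, adjusted p = 0.00286), Cebpb (0.69, adjusted p = 0.00364) and Nr1d2 (1.43, adjusted p = 4.44e-09) were higher, 0 were lower and 14 did not pass. These 4 calls held in each of 23 alternatives. Of all genes, 0.965% were higher and 0.379% lower in this comparison.

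Other genes known as targets of PPAR receptors and FOXO factors in heart were compared beside Pdk4. Of 25 measured, 1 rose between the genotypes at ZT12 (of all genes, 0.442%), 0 fell (0.289%) and 24 did not pass. Their median log2 difference was 0.07. Without adjustment, limma's model put 7 of them under 0.05, beside 2342 of all 22180 genes. The gene that rose was Plin5, which coats lipid droplets beside mitochondria: 7.18 in wild type and 7.82 in the knockout, a log2 difference of 0.63 (SE 0.11, adjusted p = 0.00808) without overlap of the groups. Of all genes, 1.4% had no overlap between these groups, 0.969% with the knockout higher. The call for Plin5 held in 23 of 24 alternatives, the exception being the hearts low in Bmp10 (adjusted p = 0.141). Between the times of day Plin5 fell by 0.43 on the log2 scale (adjusted p = 0.0481) and 24 did not pass. Of all genes, 0.482% fell in this comparison. The fall of Plin5 was lost in 17 of 26 alternatives (adjusted p 0.0552 to 0.385). These included leaving out any single wild-type heart other than ZT0 replicate 6 and ZT12 replicates 1 and 5. Against wild-type hearts at ZT0, the knockout hearts were higher in Slc25a20, the carnitine carrier of mitochondria (0.36, adjusted p = 0.017), and in Fbxo32, a ubiquitin ligase gene of muscle (0.32, adjusted p = 0.0164). The call for Slc25a20 was lost in 5 of 23 alternatives, among them without knockout replicate 4 or 5 (adjusted p 0.0501 to 0.172), and that for Fbxo32 in 4, among them without knockout replicate 4 (0.0583 to 0.119). For both genes these alternatives included the atrial mean as a covariate. Of all genes, 0.965% were higher and 0.379% lower in the knockout hearts than in wild-type hearts at ZT0.

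**Figure D5:**
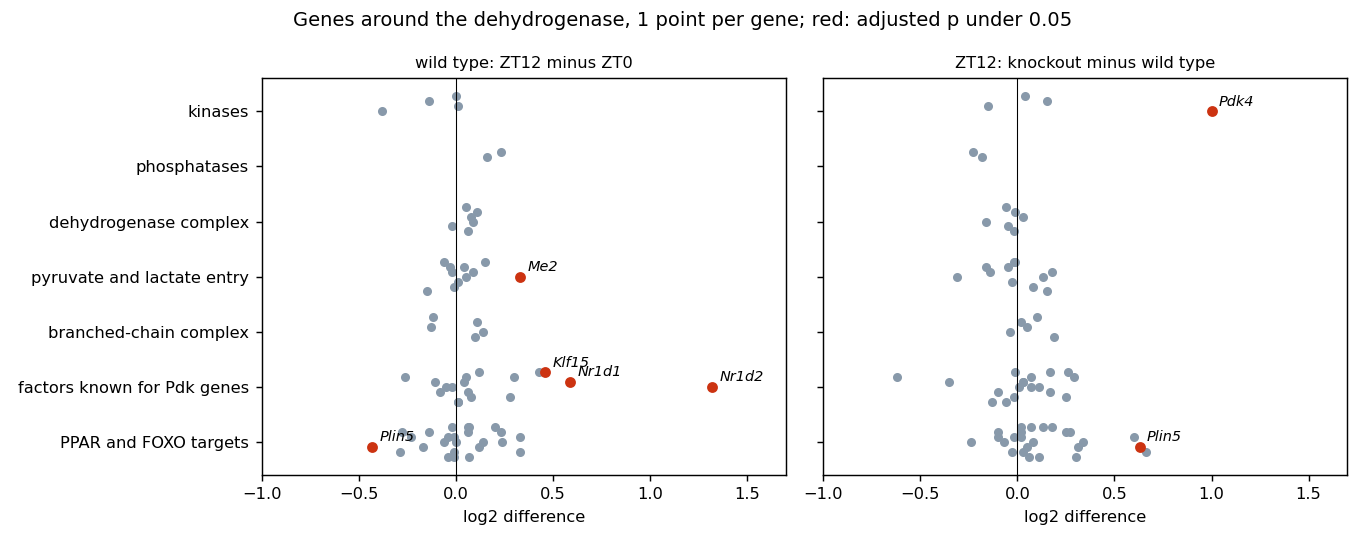
Log2 difference of each gene (points; x axis) in lists around the dehydrogenase (y axis), between the times of day in wild type (left) and between the genotypes at ZT12 (right), with genes of adjusted p under 0.05 in red and named. Between the genotypes the red points are Pdk4 at 1.0 and Plin5 at 0.63, and the 6 genes of the complex lie between -0.16 and 0.03.

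Glucocorticoid-responsive genes, a group that fasting and stress hormones raise together with Pdk4, were listed for comparison. Of 15 genes, 6 rose and 1 fell between the times of day (median log2 difference 0.32), 3 rose and 0 fell between the genotypes (median 0.16), and 8 rose and 0 fell between the knockout and wild-type ZT0 hearts (median 0.61). Of all genes, 0.645%, 0.442% and 0.965% rose and 0.482%, 0.289% and 0.379% fell in the same order. This list, like the others, was chosen with earlier results of these data known, so its counts do not test a shared response. By adjusted p the leading genes between the times of day were Zbtb16, a zinc-finger repressor gene (log2 difference 1.48, adjusted p = 1.78e-09), the clock gene Per1 (0.99, adjusted p = 1.95e-05) and Klf9, a Krüppel-like factor gene (0.46, adjusted p = 0.000888), which rose, and Cdkn1a, of a cell cycle inhibitor, which fell (-0.78, adjusted p = 0.00214). The fall of Cdkn1a was lost in the hearts with high Bmp10 (adjusted p = 0.124). Between the genotypes the 3 genes that rose were Cdkn1a (1.12, adjusted p = 0.000246), Lcn2, of a secreted iron-binding protein (0.89, adjusted p = 0.0179), and Zbtb16 (0.46, adjusted p = 0.0361). All 3 calls were lost in the hearts low in Bmp10, and for Cdkn1a (adjusted p = 0.096) this was the only loss among 24 alternatives of the genotype comparison. That for Lcn2 was lost in 5 of 24 alternatives, among them without knockout replicate 2 or 3 (adjusted p 0.0506 to 0.512). That for Zbtb16 was lost in 14 (0.0547 to 0.466), among them with the atrial mean as a covariate. They included leaving out wild-type ZT12 replicate 1, 2, 4, 5 or 6 or knockout replicate 1, 3, 4 or 5. Between the knockout and wild-type ZT0 hearts the leading genes were Zbtb16 (1.94, adjusted p = 1.09e-10), Per1 (1.11, adjusted p = 1.36e-05), Sult1a1, a sulfotransferase gene (0.98, adjusted p = 7.79e-05), and Klf9 (0.61, adjusted p = 8.27e-05).

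Of 16 measured hypoxia-inducible genes, the family to which Pdk1 is often counted, 1 rose and 0 fell between the genotypes. This was Ddit4, an inhibitor of growth signalling, at 1.38 (adjusted p = 8.27e-06), lost in the hearts low in Bmp10 (adjusted p = 0.0642). Of all genes, 0.442% rose and 0.289% fell between the genotypes, and 0.645% and 0.482% between the times of day. Between the knockout and wild-type ZT0 hearts these shares were 0.965% and 0.379%. Between the times of day 1 rose and 2 fell: Pfkfb3, a glycolytic regulator gene, was at 0.56 (adjusted p = 0.0398), Vegfa, of an angiogenic growth factor, at -0.36 (adjusted p = 0.0289) and Ddit4 at -0.68 (adjusted p = 0.00661). Each call was lost in some alternatives. That for Ddit4 was lost in the hearts with high Bmp10 (0.0713), that for Pfkfb3 in 10 of 26, among them without wild-type ZT0 replicate 1, 2, 4, 5 or 6 or wild-type ZT12 replicate 1, 2, 4 or 7 (0.0542 to 0.0932), and that for Vegfa in 12, among them without wild-type ZT0 replicate 1, 2, 5 or 6 or wild-type ZT12 replicate 1, 3, 5 or 7 (0.0503 to 0.274). Between the knockout and wild-type ZT0 hearts 1 rose, Ddit4 (0.70, adjusted p = 0.00993), a call lost in 2 of 23 alternatives, one of them with the atrial mean as a covariate (adjusted p 0.051 and 0.0638). The 2 that fell were Egln3, of an oxygen-sensing hydroxylase (-0.74, adjusted p = 0.0322), and P4ha1, of a collagen hydroxylase (-0.47, adjusted p = 0.0394). The call for Egln3 was lost in 9 of 23 alternatives, among them without wild-type ZT0 replicate 1, 2, 3, 5 or 7 or knockout replicate 1, 4 or 5, and that for P4ha1 in 14, among them without any single compared heart other than wild-type ZT0 replicate 4 and knockout replicate 3 (adjusted p 0.0536 to 0.147 over both). Both calls were also among those lost with the atrial mean as a covariate.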

How the data were processed

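Total RNA (300 ng per heart) was labelled and hybridised to Affymetrix whole-transcript arrays, 1 array for each of the 19 hearts, which the labels call biological replicates. Per the submitters' processing notes the authors used RMA, and the deposited values were taken as log2 intensities, since they ran from 0.21 to 12.88. RMA equalises the distribution of values across arrays, so a change shared by most genes would not be seen. The software version and annotation were not given in the sources used here. Of 41345 probe sets, 23521 list 1 gene, 1814 several and 16010 none in GEO's platform annotation; the first gave 22180 genes. Sequences and gene identifiers are RefSeq's, GRCm38.p6.

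The test was limma's moderated one, from version 3.58.1 under R 4.3.3 (1 mean per group over all arrays, eBayes without trend, two-sided, Benjamini-Hochberg over all genes, called at an adjusted p under 0.05). Correlations were tested by permutation within groups with 100000 resamples, or exactly, in numpy 2.4.6. The fit was tested on simulated data. The number of arrays limits the precision. Named genes were all 6 members, the 5 genes most like Pdk4, and called genes of each list (up to 4 by adjusted p) or the one nearest. Lists of cell markers and immediate early genes were left out of this rule. Calls of cell markers are given only between the genotypes. Mpc1, Ldhb, Ppara, Arntl and Bmp10 were named after their values were seen. Members and lists were chosen with earlier results of these data known. Alternatives are given at the end; the splits by Bmp10 (under or from 6) and the immediate early covariate were added after seeing the data.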

Additional observations from a re-analysis of the deposited data

How the results depend on the processing

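Values of the 6 genes were recomputed in 435 combinations of gene, comparison and alternative. The direction and the side of the threshold were unchanged in 388 of them, 5 ended the call for Pdk4 between the genotypes, 2 made Pdp1 pass between the times of day, and 40 turned the sign of a difference that did not pass in either setting. Those 40 were at most 0.29 in size with adjusted p of at least 0.476.

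For Pdk4 between the genotypes, adjusted p was 0.0974 with only the arrays compared and 0.257 in the hearts low in Bmp10, and 0.00716 to 0.0585 with a replicate left out. Replicate numbers did not pair the hearts: correlations of the deviations of same-numbered hearts were -0.07 to 0.07 over the 3 pairs of groups, and 0 hearts correlated best with their own number. With the replicate block, adjusted p for Pdk4 was 0.0708, and 88 genes were called between the genotypes and 182 between the knockout and wild-type ZT0. For Pdp1 between the times of day, adjusted p was 0.0487 with a trend and 0.0354 among genes above the median level. It was 0.0773 to 0.208 with a replicate left out.

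Signs turned in these settings, given with adjusted p. Quantile normalization turned Pdk1 between the times of day (0.96) and Pdk2 and Pdp1 between knockout and wild-type ZT0 (0.979 and 0.926), and centring turned Pdp2 there (0.971). Averaging probe sets turned Pdk1 between the times of day (0.768) and between knockout and wild-type ZT0 (0.903). The atrial covariate turned Pdk3 between the genotypes (0.857) and, against wild-type ZT0, Pdk3 (0.476) and Pdp1 (0.965). Pdk1 between the times of day also turned with array weights (1.0), the immediate early covariate (0.991) and in hearts with high Bmp10 (0.993), Pdk1 between the genotypes in hearts low in Bmp10 (0.998), and Pdk3 between the times of day with the immediate early covariate (0.977). Leaving out a replicate turned 26 values (in brackets, the range over all replicates left out in turn): Pdk1 (adjusted p 0.929 to 0.993) and Pdk3 (0.901 to 0.996) between the times of day, and Pdk2 (0.869 to 0.989), Pdp1 (0.882 to 1.0) and Pdp2 (0.824 to 0.989) against wild-type ZT0.

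Between the times of day 250 genes were called, 431 among genes above the median level, 51 in hearts with high Bmp10 and 185 to 251 with a replicate left out. Between the genotypes 162 were called, 267 with a trend, 283 among genes above the median level, 72 with only the arrays compared, 4 in hearts low in Bmp10 and 94 to 161 with a replicate left out. Between the knockout and wild-type ZT0 298 were called, 527 among genes above the median level, 187 with only the arrays compared, 165 with the atrial covariate and 171 to 311 with a replicate left out. Why these counts moved was not tested, apart from the smaller number of genes or arrays that a setting uses.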
